A study of Mus musculus with 16 samples.

Results

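B16-BL6 melanomas that received X-rays and nothing else were compared with melanomas that received no treatment. The members are the 4 samples titled as X-ray and the 4 titled as control, 8 of the 16 samples of the series. All of them were tumour preparations from male C57BL/6J mice, 8 weeks of age, each an individual sample of the transplantable B16-BL6 mouse melanoma line. The other 8 samples received 5-aminolevulinic acid (ALA, 50 mg per kg, given locally), alone or before the radiation, and are not described for their own sake. They form a second set in which irradiated and unirradiated tumours can be compared, and they enter the shared estimate of the spread and the filter on dim probes. A fit of only the 8 X-ray and control arrays called 713 genes, where the fit of all 16 called 519. The labels call the irradiation fractionated. The radiation dose, the number of fractions and the time from the last fraction to sampling are not given in the sources used here. Total RNA from tumours preserved in RNAlater was labelled with Cy3 and hybridised to 1-colour Agilent whole-genome mouse arrays. The labels name 1 mouse for each preparation but do not say which preparations shared a litter, an inoculum or a day, so p-values measure the spread between these tumours.

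Ionising radiation breaks DNA, and the break is sensed by kinases that stabilise the transcription factor p53. Its best known target, Cdkn1a, encodes p21, an inhibitor of the cyclin-dependent kinases that release E2F transcription factors from the retinoblastoma protein. E2F factors in turn drive genes of DNA replication, nucleotide supply and repair, and a related repressor complex controls many genes of mitosis. A melanoma sampled whole also holds macrophages, fibroblasts, vessels, blood and adjacent muscle, so each level below is that of a mixture. In such bulk RNA, fewer cells of a type and less RNA per cell cannot be told apart.

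The label of the tissue was checked first. All 7 melanoma identity genes (Tyr, Tyrp1, Dct, Pmel, Mlana, Mitf and Sox10) were well above background on the 8 arrays, and their summed signal was 934 to 1110 times the array's 75th percentile in control and 1060 to 1190 times in X-ray tumours. The 75th percentile itself, the unit in which signal is given below, was 213 to 408 intensity units on control and 224 to 478 on X-ray arrays. Between 44.3% and 53.6% of spots were well above background. Array pairs correlated at 0.9667 to 0.9838 within control and at 0.9451 to 0.9807 within X-ray. Some tumours stood apart in their admixed tissue. The summed skeletal muscle markers were 1.86, 2.03, 360.0 and 92.6 in control replicates 1 to 4 against 43.2, 2.68, 30.1 and 7.65 in X-ray replicates 1 to 4. The summed macrophage markers were 65.7 to 122.0 in control and 20.9 to 123.0 in X-ray tumours, with X-ray replicates 3 and 4 the lowest and X-ray replicate 1 the highest. X-ray replicate 1 was also the highest of the 8 in the NK and cytotoxic markers, at 2.64 against 0.111 to 0.49 elsewhere. Each slide carried 1 array of each group, with slide and replicate number equal, so values per slide set one X-ray array against one control array. The position on the slide followed the group, and position and group cannot be told apart.

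Across 15399 genes, 519 differed between X-ray and control at an adjusted p under 0.05 (3.37%; limma, Benjamini-Hochberg adjustment over all genes), 307 of them higher (1.99%) and 212 lower (1.38%). "Called", "risen" and "fallen" mean past this threshold throughout. The background against which groups of genes are read is a median log2 difference of -0.02 over all genes, with 47.3% of genes above 0 and 52.7% below. An unadjusted p under 0.05 by limma was reached by 3375 of the 15399 genes. Array values did not overlap between the groups for 2822 genes (18.3%), 1206 of them higher in X-ray tumours (7.83%) and 1616 lower (10.5%), and for 503 of the 519. The differences were moderate: 152 of the 519 were at least 2-fold, and the median size was 0.91 on the log2 scale for risen and -0.69 for fallen genes. Of the called genes, 517 had the same sign on all 4 slides, which follows largely from their selection on these same arrays. Their median size was 0.86 on slide 1, 0.90 on slide 2, 0.48 on slide 3 and 0.92 on slide 4, and X-ray replicate 3 was the tumour nearest to the control mean for 372 of the 519.

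**Figure D1:**
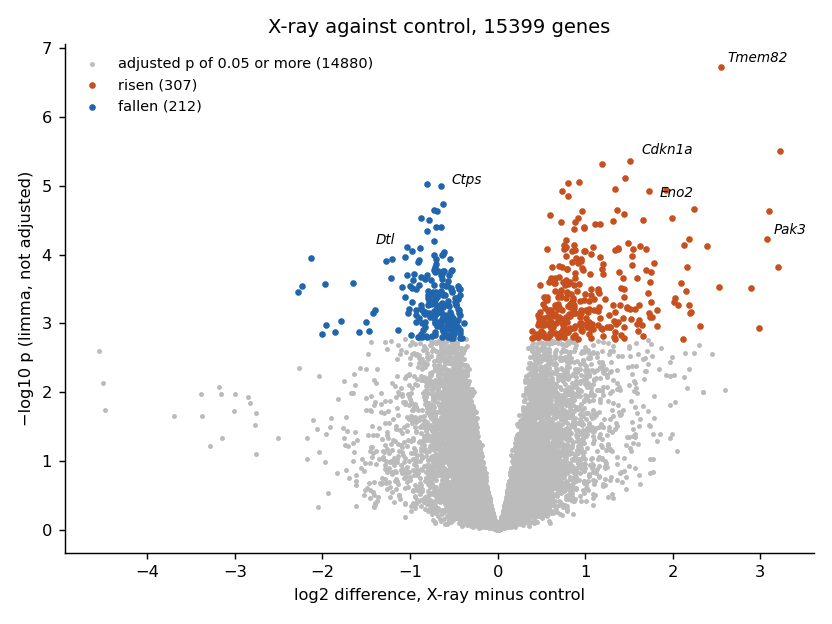
Each point is 1 of 15399 genes, with the log2 difference of X-ray minus control on the x axis and −log10 of the unadjusted limma p on the y axis. Orange points are the 307 risen and blue points the 212 fallen genes. Fallen genes lie mostly within 1 unit of 0, while risen genes spread farther.

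The adjusted p-values lay close to the threshold, with a median of 0.0338 over the called genes and a smallest value of 0.0029. The number called therefore moved strongly when 1 array was left out. Omitting control replicates 1 to 4 in turn gave 158, 2, 242 and 5 called genes. Omitting X-ray replicates 1 to 4 in turn gave 1, 11, 836 and 5. In each of these 8 fits all 519 genes kept their direction and an unadjusted p under 0.05, and the highest adjusted p among them was 0.153. The 519 were selected on these same arrays, so the kept direction and unadjusted p are largely set by that selection. Of the 81 called genes named by rule, Tmem82 passed in every such fit, and each other one missed the threshold in at least 1. With the median of each array as the scale 28 genes were called, 27 higher and 1 lower, and without the filter on dim probes 3 were. With each array's 75th percentile taken only over spots measured on every array, 501 were higher and 246 lower.

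**Figure D2:**
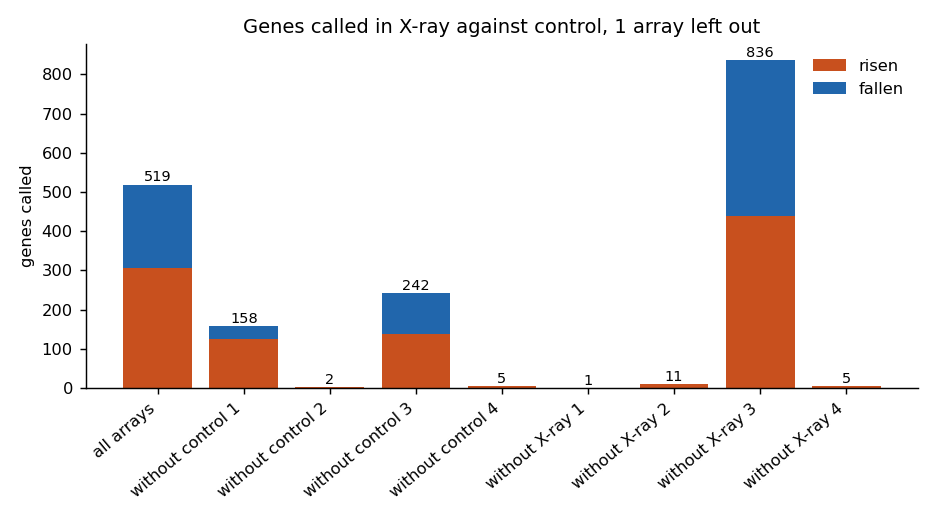
Bars give the number of genes called with all arrays and with 1 array left out, split into risen (orange, lower part) and fallen (blue, upper part). The count of 519 rose to 836 without X-ray replicate 3 and fell to between 1 and 242 without any other array.

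Cdkn1a was the risen gene of smallest p among those well above background on all 8 arrays. Its promoter is shown because it holds matches to the p53 half-site, a motif given here by its name. Of 12884 promoter windows of all tested genes (250 bases before to 50 after a RefSeq start, 10125 genes), 7.06% hold this motif, against 24.5% of the 53 windows of the p53 target list and 8.36% of the 311 windows of risen genes. Of the other 4 risen members of that list, Polk has a match and Apaf1, Sulf2 and Ak1 have none in these windows. Of the 2 Cdkn1a windows in the table, that of the other RefSeq start (chr17:29093519-29093818) has 0 matches. The 2 matches in the window shown are in capitals (RefSeq, GRCm38.p6, 5′ to 3′).
Cdkn1a, chr17:29090729-29091028 (strand +): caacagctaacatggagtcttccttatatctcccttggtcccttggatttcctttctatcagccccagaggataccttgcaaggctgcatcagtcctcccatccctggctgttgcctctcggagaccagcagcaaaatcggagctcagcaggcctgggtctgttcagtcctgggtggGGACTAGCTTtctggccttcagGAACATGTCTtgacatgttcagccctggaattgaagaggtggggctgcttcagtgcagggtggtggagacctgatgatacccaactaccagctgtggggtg
Log2 signals are given relative to the array's 75th percentile, in the order of replicates 1 to 4. Cdkn1a stood at 1.85, 2.40, 1.92 and 1.94 in control and 4.13, 3.50, 3.13 and 3.40 in X-ray tumours (probe at chr17:29237377-29237436 in mm9). Every X-ray tumour lay above every control, with X-ray replicate 1 the highest and replicate 3 the lowest. The difference was 1.52 (SE 0.21, 2.86-fold higher, adjusted p = 0.0143). It missed the threshold without control replicate 4 (adjusted p = 0.0525) or X-ray replicate 1 (0.0502).

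Other p53 targets differed less. Of 44 p53 target genes tested, 36 lay above 0, 5 had risen and 0 had fallen (11.4% called, against 3.37% of all genes), and the list's median difference was 0.40, with slide medians of 0.45, 0.51, 0.24 and 0.34. Polk, the translesion polymerase kappa, stood at -1.58, -1.52, -1.47 and -1.85 in control and -0.90, -0.65, -0.46 and -0.52 in X-ray tumours. Each X-ray value exceeded each control value, and the difference was 0.97 (SE 0.16, 1.96-fold higher, adjusted p = 0.0167). Apaf1, the scaffold of the apoptosome, rose by 0.59 (SE 0.14, 1.51-fold higher, adjusted p = 0.0348). Sulf2, a heparan sulfate sulfatase, stood at 2.41, 2.83, 2.52 and 3.11 against 4.03, 4.36, 3.74 and 3.85, again without overlap, and rose by 1.28 (SE 0.32, 2.43-fold higher, adjusted p = 0.0412). Ak1, an adenylate kinase, rose by 1.18 (adjusted p = 0.0418). Several classical members were not called. Mdm2, the ubiquitin ligase that degrades p53, stood at 1.24, 1.42, 1.32 and 1.21 in control and 1.52, 2.02, 1.78 and 1.86 in X-ray tumours. Its groups did not overlap, yet the difference of 0.50 did not pass (adjusted p = 0.134). Sesn2, a stress-induced sestrin, had a difference of 0.82 (adjusted p = 0.0666). Gdf15, a secreted stress cytokine, had -0.70 (adjusted p = 0.289). Trp53, the gene of p53 itself, had 0.54 (adjusted p = 0.312). With slide as a block, Sulf2 (adjusted p = 0.0615) and Ak1 (0.0505) missed the threshold and 3 of the 5 remained. With 1 array left out, 0 to 4 of the 5 passed, 0 of them without control replicate 4 or X-ray replicate 1 and 4 without X-ray replicate 3, with adjusted p up to 0.126.

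Genes that promote and that oppose cell death were among the rises. Of 34 apoptosis and necroptosis genes tested, 3 had risen and 0 had fallen (8.82%, against 3.37% of all genes), with a list median of 0.16. Bcl2l1, which encodes the survival protein Bcl-xL, stood at 0.07, -0.23, -0.20 and -0.35 in control and 1.04, 1.02, 0.27 and 0.93 in X-ray tumours. X-ray replicates 1, 2 and 4 were close together and replicate 3 was nearer to the controls, still above all of them. The difference was 0.99 (SE 0.17, 1.99-fold higher, adjusted p = 0.0169). Mlkl, the pore-forming effector of necroptosis, stood at 1.45, 1.47, 1.51 and 1.38 against 2.76, 2.38, 1.81 and 2.23. The groups did not overlap, and the difference was 0.84 (SE 0.16, 1.79-fold higher, adjusted p = 0.0208). Apaf1, described above, was the third. Each of the 3 calls was lost without control replicate 2 or 4 or without X-ray replicate 1, 2 or 4, at adjusted p up to 0.0957, and Apaf1 also without control replicate 1 or X-ray replicate 3.

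Among the other leading rises, several encode signalling and cytoskeletal proteins. Lpin3, a lipin that makes diacylglycerol from phosphatidate, stood at -1.67, -2.56, -2.20 and -2.52 against -0.92, -1.09, -1.24 and -0.93, a rise of 1.19 (SE 0.17, 2.29-fold higher, adjusted p = 0.0143), or 0.58 (adjusted p = 0.0309) with normexp background correction. Capn5, a calpain protease, rose by 1.34 (SE 0.20, 2.54-fold higher, adjusted p = 0.0143), from -1.71, -2.13, -1.77 and -2.34 to -0.11, -0.76, -1.0 and -0.71. In both genes every X-ray tumour was above every control. Tiam1, an exchange factor of the GTPase Rac, rose by 0.81 (adjusted p = 0.0154). Tubg2, a gamma-tubulin, rose by 0.92 (adjusted p = 0.0143). Pou6f1, a POU-domain transcription factor, rose by 0.80 (adjusted p = 0.0143). Pcolce, which enhances the processing of procollagen, rose by 0.74 (adjusted p = 0.0143). Smim1, a small membrane protein, rose by 1.36 (adjusted p = 0.0167). None of these 7 genes had overlapping groups. Each was lost without control replicate 2 or 4, or X-ray replicate 1 or 4, with adjusted p up to 0.0629.

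The rises with the smallest p among dimmer genes reached larger folds. Tmem82, a transmembrane protein gene, stood at -2.84, -4.06, -3.41 and -3.95 in control, where 2 of 4 arrays were well above background, and at -1.16, -0.77, -1.66 and -0.50 in X-ray tumours. The groups lay more than 1 log2 unit apart, and the difference was 2.55 (SE 0.27, 5.84-fold higher, adjusted p = 0.0029). With normexp background correction and an offset of 50 intensity units, which brings dim signals closer together, it was 1.07 (adjusted p = 0.0178). Scml4, a Polycomb-related gene, was above the background limit on 0 control and 4 X-ray arrays, which gives a bound of at least 2.43-fold higher (adjusted p = 0.0167). Pak3, a p21-activated kinase, was likewise at least 2.54-fold higher (adjusted p = 0.0208). With normexp their differences were 0.36 (adjusted p = 0.227) and 0.57 (adjusted p = 0.125). For these bounds the control level on each array was the lowest signal of its measured probes, or the probe's own signal where that was higher. Agt, angiotensinogen, was measured on all 8 arrays, at -0.20, -0.73, -0.56 and -0.48 against 1.70, 1.31, 0.45 and 1.07. X-ray replicate 3 was again the nearest to the controls, and the difference was 1.62 (SE 0.30, 3.08-fold higher, adjusted p = 0.0208). Over the 307 risen genes, 20 were well above background on no control array. Without 1 array Scml4, Pak3 and Agt had adjusted p up to 0.0744 and were lost without control replicate 2 or 4 or X-ray replicate 1, 2 or 4.

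**Figure D3:**
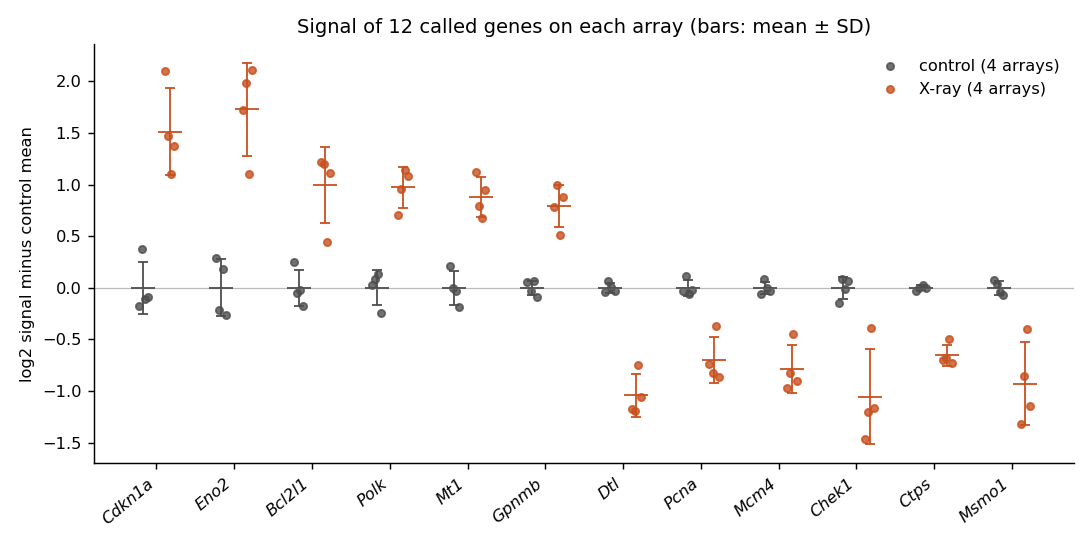
Points show the log2 signal of 12 called genes on each of 4 control (grey) and 4 X-ray arrays (orange), minus the mean of the control arrays, with mean ± SD as bars. The 2 groups are apart in every gene shown, and in 11 of the 12 the X-ray point nearest to the controls belongs to replicate 3.

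Genes of DNA replication were lower nearly throughout. Of all genes, 3.37% were called. Of 23 genes of origin licensing and the replicative helicase, 22 lay below 0 and 3 had fallen (13.0%), with a median of -0.66. Of 34 replication fork genes, 33 lay below 0 and 7 had fallen (20.6%), with a median of -0.63. No member of either list had risen. Array values did not overlap for 17 of the 23 and for 25 of the 34, all of them lower in X-ray tumours, against 10.5% of all genes. The slide medians were -0.73, -0.77, -0.23 and -0.69 for the fork list and -0.72, -0.78, -0.26 and -0.72 for the licensing list, smallest on slide 3 in both.

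E2F sites are a known feature of such promoters, and 4 windows with matches are shown as examples from genes that fell. The motif was searched on both strands as TTTCCCGC, TTTGGCGC, TTTCGCGC or TTTGCCGC. It occurs in 3.75% of the windows of all tested genes, in 32.1% of the 56 windows of the 2 replication lists, in 13.9% of the 187 windows of fallen genes and in 1.61% of the 311 windows of risen genes. Of the 6 windows of fallen replication genes that the table holds, 3 have a match, those of Rfc3, Pole2 and Cdt1. The Pcna window has none of these letters. Matches are in capitals (RefSeq, GRCm38.p6, 5′ to 3′), and a match is a description of the letters only.
Rfc3, chr5:151651159-151651458 (strand -): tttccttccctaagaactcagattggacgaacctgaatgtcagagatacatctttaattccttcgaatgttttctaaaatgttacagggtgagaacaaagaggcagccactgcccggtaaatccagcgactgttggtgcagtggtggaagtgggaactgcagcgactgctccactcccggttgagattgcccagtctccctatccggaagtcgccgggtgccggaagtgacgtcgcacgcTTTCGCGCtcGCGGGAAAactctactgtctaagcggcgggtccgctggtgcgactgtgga
Pole2, chr12:69228141-69228440 (strand -): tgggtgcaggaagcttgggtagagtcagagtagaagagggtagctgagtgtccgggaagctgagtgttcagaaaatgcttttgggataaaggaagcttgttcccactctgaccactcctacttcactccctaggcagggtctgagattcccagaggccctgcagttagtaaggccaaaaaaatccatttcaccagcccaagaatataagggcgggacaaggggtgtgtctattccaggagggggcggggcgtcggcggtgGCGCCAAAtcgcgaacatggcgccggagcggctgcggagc
Cdt1, chr8:122567765-122568064 (strand +): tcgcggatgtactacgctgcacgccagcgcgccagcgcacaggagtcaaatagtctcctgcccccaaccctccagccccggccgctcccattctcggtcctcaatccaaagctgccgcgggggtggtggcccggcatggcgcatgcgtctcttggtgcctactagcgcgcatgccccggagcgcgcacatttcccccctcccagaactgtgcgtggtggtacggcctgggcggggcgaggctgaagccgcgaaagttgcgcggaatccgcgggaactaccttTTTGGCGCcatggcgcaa
Ppat, chr5:76951529-76951828 (strand -): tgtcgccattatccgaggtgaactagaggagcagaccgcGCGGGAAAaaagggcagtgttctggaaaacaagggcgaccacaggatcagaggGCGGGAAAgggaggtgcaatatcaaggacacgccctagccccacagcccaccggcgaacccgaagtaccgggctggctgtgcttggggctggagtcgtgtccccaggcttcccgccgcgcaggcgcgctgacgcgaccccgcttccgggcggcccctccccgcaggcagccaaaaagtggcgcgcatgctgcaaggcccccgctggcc
Ppat belongs to the nucleotide supply genes. The windows of Ctps and Dtymk, fallen genes of the same list, have 0 matches.

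At origins, Cdt1, the factor that loads the Mcm helicase, stood at 4.92, 5.15, 4.99 and 4.99 in control and 4.00, 3.96, 4.49 and 3.96 in X-ray tumours. X-ray replicates 1, 2 and 4 were almost equal and replicate 3 was higher, though under every control, and the difference was -0.90 (SE 0.23, 1.87-fold lower, adjusted p = 0.0485). Mcm4, a subunit of the helicase ring, stood at 4.68, 4.82, 4.74 and 4.71 against 3.77, 3.91, 4.29 and 3.84 (probe at chr16:15624372-15624431 in mm9). The pattern over replicates was the same, and the difference was -0.79 (SE 0.18, 1.73-fold lower, adjusted p = 0.0319). Gins4, of the GINS complex that completes the active helicase, had -0.50 (SE 0.13, 1.41-fold lower, adjusted p = 0.0461). Mcm2, another ring subunit, stood at 3.59, 3.87, 3.60 and 3.82 against 2.56, 2.94, 3.33 and 3.15, without overlap, but did not pass at -0.73 (adjusted p = 0.195). Dtl, the substrate receptor of the ubiquitin ligase that destroys Cdt1 and p21, stood at 2.15, 2.26, 2.20 and 2.16 in control and 1.02, 1.0, 1.45 and 1.14 in X-ray tumours. All X-ray values were at least 0.5 lower than the lowest control, and the fall was -1.04 (SE 0.19, 2.06-fold lower, adjusted p = 0.0208). With slide as a block Cdt1 (adjusted p = 0.0671) and Mcm4 (0.0518) missed the threshold, and the licensing list kept 1 call. In the fit on the mean of each gene's probes Cdt1 had an adjusted p of 0.0502. Gins4, the call kept with the block, had -0.37 (adjusted p = 0.124) with normexp background correction.

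At the fork, Pcna, the sliding clamp, stood at 6.15, 6.29, 6.12 and 6.16 in control and 5.44, 5.36, 5.81 and 5.32 in X-ray tumours. Control values spanned under 0.2, X-ray replicate 3 lay between them and the other 3 irradiated tumours, and the difference was -0.70 (SE 0.15, 1.62-fold lower, adjusted p = 0.0294). Pole2, of the leading-strand polymerase epsilon, stood at 1.05, 1.21, 1.10 and 1.10 against 0.17, -0.01, 0.82 and -0.10. Replicate 3 was closest to control here too, and the difference was -0.90 (SE 0.19, 1.86-fold lower, adjusted p = 0.0281). Rfc3 and Rfc4, of the clamp loader, had differences of -0.85 (adjusted p = 0.0425) and -0.86 (adjusted p = 0.0485). Rpa2, of the single-strand binding protein, had -0.66 (adjusted p = 0.0349). Tipin, which protects stalled forks, had -0.67 (adjusted p = 0.0299), and Rnaseh2b, of the enzyme that removes RNA from DNA, -0.70 (adjusted p = 0.0238). Dna2, a nuclease and helicase of Okazaki fragments, was outside the lists and fell by 0.90 (SE 0.17, 1.86-fold lower, adjusted p = 0.0224) on the log2 scale. With 1 array left out, the 7 fork calls numbered 7 without X-ray replicate 3, 2 without control 3, 1 without control 1 and 0 without any of the other 5, with adjusted p up to 0.137. The 3 licensing calls stood without X-ray replicate 3 and were lost without each of the other 7 arrays, at adjusted p up to 0.136.

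Genes that supply nucleotides were lower too. Of 30 tested, 27 lay below 0, 4 had fallen and 0 had risen (13.3%, against 3.37% of all genes), with a median of -0.48. Without overlap 15 were lower and 1 higher, against 10.5% and 7.83% of all genes. Ctps, the CTP synthase, had the smallest p among fallen genes with a gene symbol, at 3.57, 3.60, 3.63 and 3.60 in control and 2.90, 2.92, 3.10 and 2.87 in X-ray tumours (probe at chr4:120212489-120212548 in mm9). Control tumours agreed within 0.1, X-ray tumours were all at least 0.4 lower, and the difference was -0.65 (SE 0.098, 1.57-fold lower, adjusted p = 0.0143). Dtymk, the thymidylate kinase, stood at 4.95, 5.13, 4.63 and 4.95 against 3.70, 3.92, 4.29 and 4.01, a difference of -0.94 (SE 0.20, 1.91-fold lower, adjusted p = 0.0289). Ppat, which opens purine synthesis, had -0.79 (SE 0.17, 1.73-fold lower, adjusted p = 0.0295). Both were lower in each X-ray tumour than in each control. Rrm2, the inducible subunit of ribonucleotide reductase, showed no such separation, at 2.92, 3.21, 3.06 and 3.09 against 2.41, 3.0, 2.96 and 3.35 and -0.14 (adjusted p = 0.755). Without 1 array, 4 of the 4 calls stood without X-ray replicate 3, 3 without control 3, 1 without control 1 and 0 without the others, at adjusted p up to 0.105.

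Upstream regulators of the G1/S transition did not move as one. Of 31 G1/S genes, 12 lay above and 19 below 0, with a median of -0.14. Cdkn1a, which this list shares with the p53 targets, had risen, and E2f6 and Uhrf1 had fallen (9.68% called, against 3.37% of all genes). E2f6, a repressor of the E2F family, had a difference of -0.56 (SE 0.14, 1.48-fold lower, adjusted p = 0.0383). Uhrf1, needed for maintenance of DNA methylation, stood at 3.83, 4.01, 3.87 and 3.76 against 2.75, 2.92, 3.38 and 3.12, without overlap, with -0.82 (SE 0.20, 1.77-fold lower, adjusted p = 0.0392). E2f1 overlapped between the groups, at 0.61, 0.70, 0.49 and 0.61 in control and 0.26, 0.25, 0.58 and 0.49 in X-ray tumours, with -0.20 (adjusted p = 0.705). Ccne2, a cyclin E, had -0.85 (adjusted p = 0.0587), and Ccnd1, cyclin D1, had 0.91 (adjusted p = 0.077). Uhrf1 missed the threshold with slide as a block (adjusted p = 0.0621). When each array was left out in turn, E2f6 and Uhrf1 each passed only without X-ray replicate 3, at adjusted p up to 0.119. As the mean of its probes E2f6 had -0.36 (adjusted p = 0.283), and with normexp background correction -0.52 (adjusted p = 0.0564).

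DNA repair genes were lower as well. Of 36 genes of recombination, the Fanconi pathway and the checkpoint, 33 lay below 0, with a median of -0.35. Of these 36, 3 had fallen and 0 had risen (8.33%, against 3.37% of all genes). Of the 36, 17 were lower without overlap, against 10.5% of all genes. Of 31 genes of mismatch and excision repair, 24 lay below 0 and 3 had fallen (9.68%), with a median of -0.20. Chek1, the checkpoint kinase that restrains Cdc25 phosphatases, stood at -0.05, 0.19, 0.09 and 0.17 in control and -1.36, -1.10, -0.29 and -1.06 in X-ray tumours. Replicate 3 was 0.38 below its slide's control while the others were more than 1 below, and the difference was -1.05 (SE 0.23, 2.08-fold lower, adjusted p = 0.0306). Fancb and Fancl, of the Fanconi core complex, had differences of -0.96 (adjusted p = 0.0272) and -0.53 (adjusted p = 0.0485). Msh6, of mismatch recognition, had -0.76 (adjusted p = 0.0295). Ung, the uracil-DNA glycosylase, stood at 2.34, 2.32, 2.34 and 2.27 against 1.62, 1.53, 1.58 and 1.62. Both groups were tight and far apart, and the difference was -0.73 (SE 0.14, 1.66-fold lower, adjusted p = 0.0244). Xrcc4, of the end-joining ligase, fell with -0.69 (adjusted p = 0.0306) while Polk, in the same list of 18, rose. Averaged over its probes Xrcc4 had -0.57 (adjusted p = 0.0726). Fignl1, an ATPase of homologous recombination, had -0.81 (SE 0.14, 1.75-fold lower, adjusted p = 0.0179), and Gtf2h2, of the repair and transcription factor TFIIH, -0.61 (adjusted p = 0.0244). With slide as a block, Fancl missed the threshold (adjusted p = 0.0549), and 2 of 3 calls remained in each of the first 2 lists. Without X-ray replicate 3 all of these list members passed, and without control replicate 2 or 4 or X-ray replicate 1, 2 or 4 none of them did, at adjusted p up to 0.147. Without control replicate 1 or 3, 2 and 4 of the 8 passed. Fancl had -0.455 (adjusted p = 0.0885) with normexp background correction.

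Mitotic genes also lay below control, with 1 call. All 25 mitotic cyclins, kinases and anaphase-promoting genes tested lay below 0, with a median of -0.47. Of them 12 were lower without overlap, against 10.5% of all genes. Aurkb, the Aurora kinase of the chromosomal passenger complex, was the 1 called (4.0%, against 3.37% of all genes). It stood at 2.17, 2.44, 2.25 and 2.21 against 1.16, 1.31, 1.95 and 1.57, with -0.77 (SE 0.18, 1.71-fold lower, adjusted p = 0.0365). It missed the threshold with slide as a block (adjusted p = 0.0601) and with normexp background correction (0.0746). With 1 array left out it passed only where that array was X-ray replicate 3, with adjusted p up to 0.115. The slide medians of the list were -0.62, -0.80, -0.024 and -0.41, with next to no difference on slide 3. Of 45 kinetochore, spindle and cytokinesis genes 44 lay below 0 with 0 called by limma and a median of -0.39. Of the 45, 18 had an unadjusted p under 0.05, against 3375 of all 15399 genes. Cenpk, of the inner kinetochore, had the smallest p at -0.73 (adjusted p = 0.0727). Of 23 cohesin and condensin genes 22 lay below 0 with 0 called, 8 at an unadjusted p under 0.05 and a median of -0.35. Sgo1, the shugoshin that guards centromeric cohesion, had -0.76 (adjusted p = 0.0503). Smc4, of condensin, had -0.65 (adjusted p = 0.0513). Top2a, the topoisomerase of chromosome separation, had -0.48 (adjusted p = 0.369) with overlapping groups.

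Genes that make ribosomes and process RNA were lower as well. Of 43 ribosome biogenesis genes 42 lay below 0, with a median of -0.36. Of the 43, 2 had fallen (4.65%) and 22 were lower without overlap, against 3.37% of all genes called and 10.5% lower without overlap. Dkc1, the pseudouridine synthase dyskerin, stood at -0.50, -0.47, -0.27 and -0.27 in control and -1.64, -1.39, -1.04 and -1.80 in X-ray tumours, a clear gap, with -1.09 (SE 0.23, 2.13-fold lower, adjusted p = 0.0284). Ddx21, a nucleolar helicase, had -0.68 (SE 0.16, 1.6-fold lower, adjusted p = 0.0351), but -0.49 (adjusted p = 0.204) as the mean of its probes. Of 38 spliceosome genes 35 lay below 0 and 3 had fallen (7.89%), with a median of -0.31. Prpf4, of the U4/U6 particle, stood at 2.72, 2.66, 2.55 and 2.67 against 2.11, 1.92, 2.14 and 1.91. The groups did not overlap, and the difference was -0.62 (SE 0.10, 1.54-fold lower, adjusted p = 0.0167). Srsf3 and Srsf7, serine and arginine rich splicing factors, had -0.81 (adjusted p = 0.0255) and -0.64 (adjusted p = 0.0392). Outside the lists, Pwp1, a ribosome assembly factor, fell with -0.87 (SE 0.15, 1.83-fold lower, adjusted p = 0.0167). The tRNA methyltransferase gene Trmt5 had -0.69 (adjusted p = 0.0167), and the pseudouridine synthase gene Pus7l -0.64 (adjusted p = 0.0169). Cytosolic tRNA synthetases (20 tested, median -0.20) and mitochondrial ribosomal proteins (41 tested, median -0.17) had 0 called by limma and 5 and 7 at an unadjusted p under 0.05. Of all 15399 genes, 3375 had such a p. In these lists the smallest adjusted p was 0.0934 for Sars, which lay above 0, and 0.0653 for Mrpl3, respectively. Srsf7 missed the threshold with slide as a block (adjusted p = 0.0541) and with normexp background correction (0.0569). Without control replicate 2 or 4 or X-ray replicate 1, 2 or 4 none of the 5 list calls passed, at adjusted p up to 0.123, and without control replicate 1 or 3, 1 and 3 of them did.

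The remaining leading falls had other roles. Prkar2b, a regulatory subunit of protein kinase A, stood at 4.67, 4.78, 4.69 and 4.83 in control and 4.00, 3.92, 4.33 and 3.83 in X-ray tumours, and fell with -0.72 (SE 0.13, 1.65-fold lower, adjusted p = 0.0208). Chml, a Rab escort protein, had -0.72 (SE 0.12, 1.65-fold lower, adjusted p = 0.0167). Amd2, which makes decarboxylated S-adenosylmethionine for polyamines, had -0.70 (adjusted p = 0.0169), with the reservation that its probe may also read the near-identical Amd1. Mecom, a zinc finger transcription factor also known as Evi1, stood at 2.19, 1.89, 1.32 and 1.78 against -0.20, 0.67, 0.49 and 1.11. Its X-ray values were widely spread but all under the lowest control, and the difference was -1.27 (SE 0.24, 2.42-fold lower, adjusted p = 0.0228). Cyp26b1, which breaks down retinoic acid, had -1.20 (SE 0.23, 2.3-fold lower, adjusted p = 0.0222). None of these 5 genes overlapped between the groups. Each missed the threshold without control replicate 2 or 4 or without X-ray replicate 1, 2 or 4, with adjusted p up to 0.0803, and Mecom also without control replicate 1.

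Glycolysis and hypoxia genes were higher, 9 of them past the threshold. Of 40 tested, 38 lay above 0, 9 had risen and 0 had fallen (22.5%, against 3.37% of all genes). Of the 40, 22 were higher without overlap, against 7.83% of all genes. The list's median was 0.51, with slide medians of 0.47, 0.32, 0.39 and 0.92. The hypoxia element was searched on both strands as ACGTG or GCGTG, letters that also lie inside the E-box CACGTG. It is common, in 60.2% of the windows of all tested genes, 79.2% of the 53 windows of this list and 6 of the 9 windows of its risen members. The Pgam1 window, with 3 matches in capitals, is shown as an example (RefSeq, GRCm38.p6, 5′ to 3′).
Pgam1, chr19:41911621-41911920 (strand +): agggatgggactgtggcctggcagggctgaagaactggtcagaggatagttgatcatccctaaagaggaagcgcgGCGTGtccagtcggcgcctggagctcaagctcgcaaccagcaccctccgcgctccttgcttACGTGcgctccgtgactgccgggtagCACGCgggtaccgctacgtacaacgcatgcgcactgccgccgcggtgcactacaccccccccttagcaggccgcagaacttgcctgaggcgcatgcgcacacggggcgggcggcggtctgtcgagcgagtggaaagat
Eno2, the gamma enolase of glycolysis, stood at -0.44, -0.94, -0.55 and -0.99 in control and 0.99, 1.25, 0.37 and 1.38 in X-ray tumours (probe at chr6:124710545-124710604 in mm9). X-ray replicate 3 was the lowest of its group but well above every control, and the rise was 1.72 (SE 0.26, 3.31-fold higher, adjusted p = 0.0143). Ndrg1, a stress gene induced in low oxygen, stood at 3.33, 3.53, 3.70 and 3.15 against 4.67, 4.59, 4.30 and 4.75. All X-ray values were at least 0.5 above the highest control, and the difference was 1.15 (SE 0.24, 2.22-fold higher, adjusted p = 0.0289). Pfkp and Pfkl, phosphofructokinases, rose by 0.94 (adjusted p = 0.0351) and 0.72 (adjusted p = 0.048). The glycolytic enzymes Tpi1, Pgam1 and Pkm rose by 0.45 (adjusted p = 0.047), 0.46 (adjusted p = 0.0364) and 0.53 (adjusted p = 0.0485). Ero1a, the oxidase of disulfide formation, rose by 1.74 (adjusted p = 0.0368), and the mitochondrial gene Higd1a by 0.87 (adjusted p = 0.0331). Averaged over its probes Higd1a had 0.965 (adjusted p = 0.0986).

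Not all hypoxia markers passed. Vegfa, the vascular growth factor, stood at 3.13, 2.91, 2.88 and 1.77 in control and 4.04, 3.58, 3.27 and 3.92 in X-ray tumours. The groups did not overlap, but control replicate 4 lay more than 1 below the other controls, and the difference of 1.03 had an adjusted p of 0.191. Control replicate 4 was the lowest control for Eno2, Ndrg1, Pfkp and Higd1a too. It was the control with the highest summed macrophage and fibroblast markers, 122.0 and 101.0, and the part of its makeup in this list was not tested. Without it the list's median was 0.41. With slide as a block 4 of the 9 passed, and Pfkp, Tpi1, Pgam1, Pkm and Ero1a had adjusted p of 0.0527 to 0.0583. With 1 array left out 7 passed without X-ray replicate 3, 3 without control 3, 2 without control 1 and 0 without each of the other 5, with adjusted p up to 0.128.

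Every gene of the cholesterol synthesis list lay below control. All 23 tested had a difference under 0, with a median of -0.53, and 16 were lower without overlap, against 10.5% of all genes. Of the 23, 1 was called (4.35%, against 3.37% of all genes). That gene, Msmo1, encodes the methylsterol monooxygenase. It stood at 5.66, 5.62, 5.54 and 5.52 in control and 4.27, 4.73, 5.19 and 4.44 in X-ray tumours. Control tumours lay within 0.2 of each other, X-ray tumours spread over almost 1, and the difference was -0.93 (SE 0.22, 1.91-fold lower, adjusted p = 0.0363). Cyp51, a demethylase of the same pathway, had -0.97 (adjusted p = 0.0611). Hmgcs1, at the start of the pathway, had -0.77 (adjusted p = 0.0882). Slide medians were -1.07, -0.74, -0.26 and -0.46. The CCAAT box, searched as CCAAT on both strands, is in 84.2% of the 19 windows of this list and in 37.6% of all windows. The Msmo1 window holds 3, in capitals (RefSeq, GRCm38.p6, 5′ to 3′).
Msmo1, chr8:64733529-64733828 (strand -): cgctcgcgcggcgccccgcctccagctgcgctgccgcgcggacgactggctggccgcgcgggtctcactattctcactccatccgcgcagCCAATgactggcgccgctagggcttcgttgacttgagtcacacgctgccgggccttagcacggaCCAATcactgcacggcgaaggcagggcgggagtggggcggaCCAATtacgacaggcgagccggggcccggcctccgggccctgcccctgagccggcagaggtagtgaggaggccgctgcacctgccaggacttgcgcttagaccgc
Msmo1 missed the threshold with slide as a block (adjusted p = 0.0544) and with normexp background correction (0.0584). With 1 array left out it passed only without X-ray replicate 3, with adjusted p up to 0.105.

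Lysosomal proteases and metallothioneins were among the genes that rose. Of 36 lysosomal genes 3 had risen (8.33%), all cathepsins, while the list's median was 0.042. Ctsd, the aspartic protease cathepsin D, stood at 6.03, 6.09, 6.05 and 6.17 in control and 6.74, 6.70, 6.44 and 6.85 in X-ray tumours, with 0.60 (SE 0.12, 1.52-fold higher, adjusted p = 0.0273). Ctsa, the protective protein of lysosomal hydrolases, stood at 3.56, 3.30, 3.46 and 3.38 against 4.27, 4.23, 3.84 and 4.31, with 0.74 (SE 0.14, 1.67-fold higher, adjusted p = 0.0243). In both, replicate 3 was the lowest irradiated tumour and no values overlapped. Ctsf, a cysteine protease, had 1.57 (adjusted p = 0.0348). Mt1, a metal-binding metallothionein, stood at 5.59, 5.38, 5.35 and 5.19 against 6.50, 6.17, 6.05 and 6.32. All X-ray values were higher by at least 0.4, and the difference was 0.89 (SE 0.15, 1.85-fold higher, adjusted p = 0.0167). Mt2 had 0.67 (adjusted p = 0.0392), and both belong to an antioxidant list of 31 with a median of 0.14. Gpnmb, a melanosomal glycoprotein, stood at 5.49, 5.41, 5.50 and 5.35 against 6.22, 6.43, 5.95 and 6.32 and rose by 0.80 (SE 0.16, 1.73-fold higher, adjusted p = 0.0244). It was the 1 call among 20 pigmentation genes (5.0%, median 0.02), where 3.37% of all genes were called. Mitf, the master regulator of melanocytes, had -0.35 (adjusted p = 0.407), and Tyrp1, a melanin enzyme, 0.43 (adjusted p = 0.0658). Mt2 missed the threshold with slide as a block (adjusted p = 0.0537). Without control replicate 2 or 4 or X-ray replicate 1, 2 or 4 none of these 6 calls passed, with adjusted p up to 0.116, and without control replicate 1 or 3 each time 3 of them did. As the mean of its probes Ctsd had 0.33 (adjusted p = 0.169) and Ctsa 0.55 (adjusted p = 0.0593). With normexp background correction Ctsf had 0.81 (adjusted p = 0.0542).

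Interferon genes were high in X-ray replicate 1, and none was called. Of 39 interferon response genes 37 lay above 0 with a median of 0.77, and 0 passed by limma. Of the 39, 10 had an unadjusted p under 0.05, against 3375 of all 15399 genes. The slide medians of the list were 3.97, 0.69, -0.26 and -0.48. Without X-ray replicate 1 the median was 0.09. Ifit1, an antiviral RNA-binding protein, stood at -4.53, -3.31, -2.0 and -2.35 in control and 1.40, -0.42, -1.54 and -2.25 in X-ray tumours. X-ray replicate 1 lay more than 1.5 above any other X-ray or control tumour, and replicates 3 and 4 lay among or near the controls. The difference of 2.34 had an adjusted p of 0.103. Of 20 antigen presentation genes 0 passed and 1 had an unadjusted p under 0.05, with slide medians of 2.86, -0.099, -0.18 and -0.62. Their median was 0.28, and -0.19 without X-ray replicate 1. Cd274, the checkpoint ligand PD-L1, stood at -0.47, -0.58, -0.45 and -0.64 against 1.43, -0.27, -0.56 and -0.19, high in replicate 1 and within 0.5 of the controls elsewhere, with 0.64 (adjusted p = 0.379). Tnfsf9, the ligand of the T cell costimulator 4-1BB, did pass. It stood at -3.26, -2.83, -3.03 and -3.58 in control, where 3 arrays were well above background, and -2.18, -2.33, -2.37 and -2.63 in X-ray tumours. Tnfsf9 rose by 0.80 (SE 0.18, 1.74-fold higher, adjusted p = 0.0338), or by 0.19 (adjusted p = 0.412) with normexp background correction. It was the 1 call among 16 checkpoint genes (6.25%, against 3.37% of all genes). Of 28 cytokine and chemokine genes 0 passed and 1 had an unadjusted p under 0.05, with a median of 0.002. Ccl5, a T cell attractant, had 1.97 (adjusted p = 0.0831), Ccl2, a monocyte attractant, -0.52 (adjusted p = 0.63) and Cxcl10, an interferon-induced chemokine, 0.21 (adjusted p = 0.787). Of 29 genes of senescence-associated secretion 0 passed and 1 had an unadjusted p under 0.05, with a median of -0.17. Tnfsf9 passed with 1 array left out only without X-ray replicate 3, at adjusted p up to 0.0977.

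**Figure D4:**
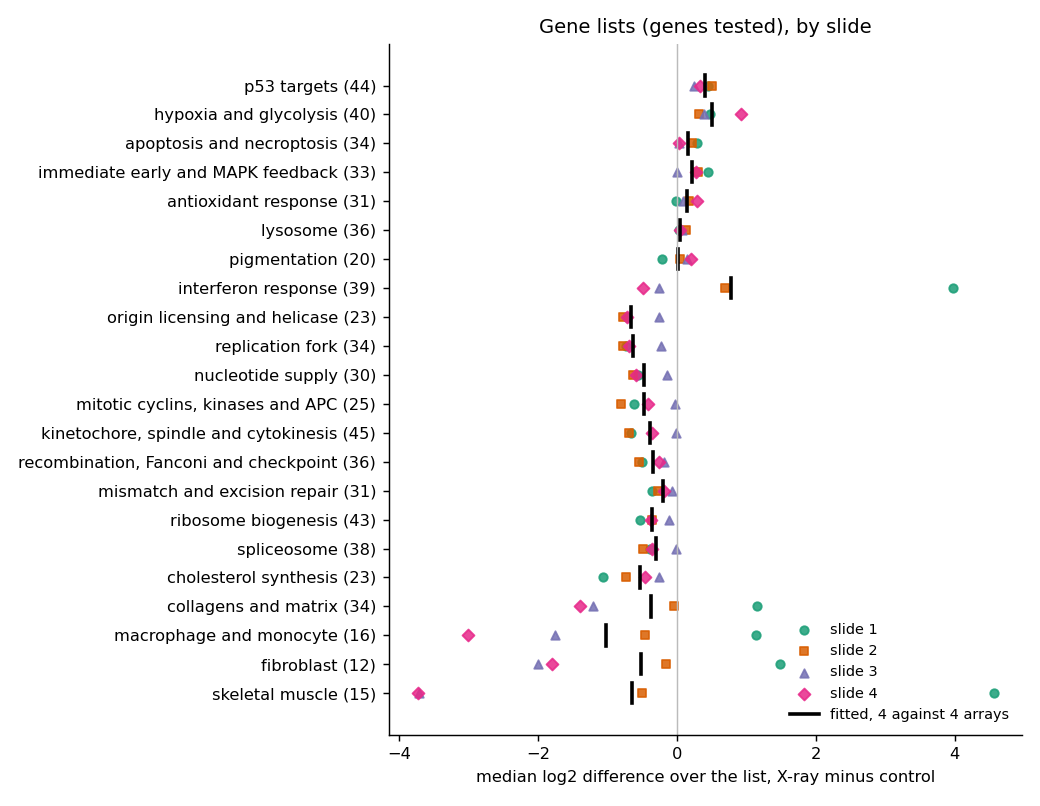
Symbols give the median log2 difference over each gene list on each of the 4 slides (1 X-ray minus 1 control array), and black bars the median of the fitted differences, with the number of genes tested in brackets. Replication lists lie left of 0 on all 4 slides and p53 and hypoxia lists right of 0, while the interferon, macrophage, fibroblast and skeletal muscle lists change side from slide to slide.

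The macrophage, fibroblast, skeletal muscle and erythroid marker lists changed sign between slides. Macrophage markers (16 tested) had a median of -1.02 with 0 called by limma, 2 at an unadjusted p under 0.05 and slide medians of 1.13, -0.46, -1.75 and -3.01. Fibroblast markers (12 tested) had -0.52 and 1.48, -0.15, -2.0 and -1.80, and skeletal muscle markers (15 tested) -0.64 and 4.56, -0.50, -3.72 and -3.73. Erythroid markers (5 tested) had 1.09 and -2.77, 2.07, 1.20 and 3.96. These 3 lists had 0 genes called and 0 at an unadjusted p under 0.05, where 3375 of all 15399 genes reached such a p. T cell, NK, B cell, neutrophil, dendritic, mast, pericyte, adipocyte, keratinocyte, platelet and Schwann cell markers had 0 called and between 0 and 4 genes a list at an unadjusted p under 0.05. The melanoma identity genes had 0 and 1 of 7 (median 0.063). The smallest adjusted p over these lists without a call was 0.0519, for the pericyte gene Rgs5. Below the filter on dim probes were, among others, the defining genes Cd4, Cd8a, Ncr1, Prf1, Ms4a1, Cd79a, Ly6g and Cxcr2. Pericyte and smooth muscle markers (12 tested) kept a median under 0 on all 4 slides, with 9 genes below 0, a median of -0.32 and slide medians of -0.66, -0.21, -0.42 and -0.24. Endothelial markers (15 tested) did so too, with 11 below 0, a median of -0.43 and slide medians of -0.80, -0.31, -0.31 and -0.12. They had 1 risen and 1 fallen gene (13.3% called, against 3.37% of all genes) and 5 at an unadjusted p under 0.05. Kdr, the main receptor of VEGF, stood at -0.08, 0.28, 0.00 and 0.18 in control and -1.93, -0.88, -0.83 and -0.86 in X-ray tumours, all lower, replicate 1 by the most, with -1.22 (SE 0.25, 2.33-fold lower, adjusted p = 0.0265). Vwf, von Willebrand factor, stood at -0.75, -2.26, -1.01 and -0.48 against 0.85, -0.20, -0.25 and 0.75. Its groups came close but did not overlap, with 1.41 (SE 0.36, 2.65-fold higher, adjusted p = 0.0474). Averaged over its probes Vwf had 1.22 (adjusted p = 0.115). The summed endothelial markers were 38.7 to 48.2 in control and 34.5 to 45.8 in X-ray tumours. Without control replicate 2 or 4 or X-ray replicate 1, 2 or 4 neither gene passed, at adjusted p up to 0.13, and without control replicate 1 or 3 each time 1 of them did.

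Matrix genes were called in both directions. Of 34 collagen and matrix genes 1 had risen and 2 had fallen (8.82%, against 3.37% of all genes). The list had a median of -0.38 and slide medians of 1.16, -0.045, -1.21 and -1.40. Col18a1, the basement membrane collagen that yields endostatin, stood at 2.94, 2.52, 2.76 and 2.78 in control and 4.02, 3.69, 3.39 and 3.79 in X-ray tumours. No values overlapped, and the rise was 0.97 (SE 0.19, 1.96-fold higher, adjusted p = 0.0244). Vtn, the adhesion protein vitronectin, stood at -1.87, -1.31, -1.87 and -1.90 against -4.03, -5.23, -3.25 and -3.54, and fell with -2.28 (adjusted p = 0.0295). Aspn, a small leucine-rich proteoglycan, stood at -2.80, -2.45, -1.53 and -1.79 against -4.11, -4.21, -3.33 and -4.96, and fell with -2.01 (adjusted p = 0.0466). Both were well above background on 4 control arrays but only 1 X-ray array, so the size of the fall is not well determined. With normexp background correction Vtn had -0.91 (adjusted p = 0.0306) and Aspn -0.79 (adjusted p = 0.081). Col3a1, the fibrillar collagen of loose tissue, did not pass (-1.04, adjusted p = 0.471). The summed fibroblast markers were 26.5 to 101.0 in control and 28.6 to 68.9 in X-ray tumours, and their part in the falls of Vtn and Aspn was not tested. Aspn missed the threshold with slide as a block (adjusted p = 0.063). Without control replicate 2 or 4 or X-ray replicate 1, 2 or 4 none of the 3 calls passed, at adjusted p up to 0.131, and without control replicate 1 or 3 each time 1 of them did.

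Signalling lists held single calls, where 3.37% of all genes were called. Nrarp, a target and inhibitor of Notch signalling, was above the background limit on 3 control and 0 X-ray arrays and was at least 1.75-fold lower (adjusted p = 0.0391), the 1 call among 25 Notch genes (4.0%, median -0.26). Smad2, a signal carrier of TGF-beta, had -0.49 (adjusted p = 0.0323), the 1 call among 31 TGF-beta and BMP genes (3.23%). Fosb, an immediate early transcription factor, exceeded the background limit on 0 control and 3 X-ray arrays and was at least 2.17-fold higher (adjusted p = 0.0351). It was the 1 called gene named by rule whose array values overlapped, at -5.60, -4.63, -5.44 and -3.72 in control and -1.40, -3.98, -2.64 and -2.59 in X-ray tumours. The immediate early list (33 tested, 3.03% called) had a median of 0.22. Of its genes 10 were higher and 2 lower without overlap, against 7.83% and 10.5% of all genes. Hsph1, a large chaperone of the Hsp70 system, had -0.62 (adjusted p = 0.0365) among 26 heat shock genes (3.85%, median -0.12). The unfolded protein list (25 tested, median -0.18) and the clock list (15 tested, median 0.18) had 0 called by limma and 7 and 2 at an unadjusted p under 0.05. Of all 15399 genes, 3375 had such a p. The smallest adjusted p in the unfolded protein and clock lists was 0.0523 for the disulfide isomerase Pdia4 and 0.0592 for the clock output gene Dbp. Syt4, a vesicle protein, rose by 1.22 (SE 0.27, 2.33-fold higher, adjusted p = 0.0313), the 1 call among the 18 of 55 neuronal genes that passed the filter. With normexp background correction Nrarp had -0.47 (adjusted p = 0.155) and Fosb 0.50 (adjusted p = 0.182). With slide as a block Nrarp (adjusted p = 0.0588) and Hsph1 (0.0555) missed the threshold. With 1 array left out these 5 genes passed only without X-ray replicate 3, at adjusted p up to 0.11.

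The same comparison exists in 8 other arrays, 4 tumours given ALA and X-ray against 4 given ALA alone. None of these enters the X-ray or control means, though all 16 arrays share the estimate of the spread and the filter on dim probes. There 3713 of 15399 genes were called (24.1%), 1649 higher (10.7%) and 2064 lower (13.4%). Of the 519 genes, 448 had the same direction in those arrays (86.3%), against 61.3% of all tested genes, and 271 had the same direction and passed (52.2%), against 18.2%. The 271 were 7.3% of the 3713. Of the fallen genes 195 of 212 had the same direction (92.0%) and of the risen 253 of 307 (82.4%). The median of the risen genes was 0.52 with ALA against 0.91 without it, and that of the fallen genes -0.47 against -0.69. Without 1 ALA array or 1 array of ALA plus X-ray, 431 to 458 kept the direction and 200 to 308 kept it and passed. With median scaling 161 did. Passing in 1 set of arrays and not in the other does not show a difference between them.

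Among the genes called in both sets and named by rule, Cdkn1a had 1.98 under ALA (adjusted p = 0.000615) and 1.52 without. Pcolce had 0.66 (adjusted p = 0.00304), Tmem82 1.64 (0.00267) and Agt 2.44 (0.0012). Among the falls, Dtl had -1.12 (adjusted p = 0.00283), Ung -0.88 (0.0025), Cyp26b1 -2.0 (0.000652), Mecom -2.20 (0.000615), Gtf2h2 -0.72 (0.00281) and Dna2 -0.84 (0.00597). In the ALA arrays 13.4% of all genes had fallen and 10.7% had risen. By list, the replication fork genes had a median of -0.69 with ALA and 24 of 34 fallen, the licensing genes -0.86 and 20 of 23, and the mitotic genes -0.80 and 19 of 25. The p53 targets had 0.57, with 19 of 44 risen and 1 fallen. The cholesterol genes had -1.0 and 18 of 23 fallen. Lists without a call in X-ray against control also moved with ALA. Interferon genes had a median of 2.74 and 35 of 39 risen, and macrophage markers 3.47 and 15 of 16 risen. In limma's test of the difference between the 2 X-ray effects, 11 of the 16 macrophage markers and 0 of the 39 interferon genes passed. Of all genes, 1.23% passed it.

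**Figure D5:**
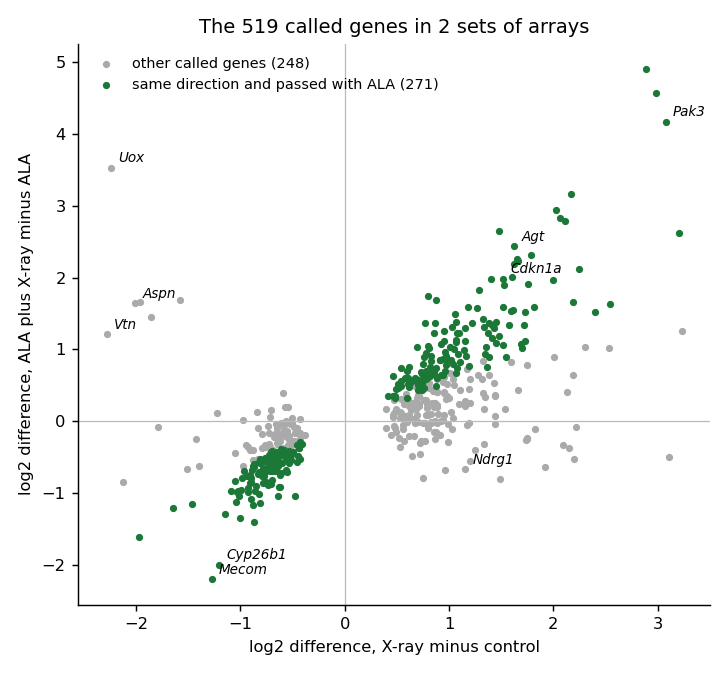
Each point is 1 of the 519 called genes, with the log2 difference of X-ray minus control on the x axis and of ALA plus X-ray minus ALA, from other arrays, on the y axis. The 271 green points passed in the same direction in both. Other genes are grey, and Uox, Vtn and Aspn lie on the opposite side of 0.

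The hypoxia list was not higher in the ALA arrays. Its median there was -0.18, with 3 of 40 risen and 1 fallen, where 10.7% of all genes had risen and 13.4% had fallen. The 2 X-ray effects differed at an adjusted p under 0.05 for 189 of 15399 genes (1.23%) and for 25 of the 519. The signed difference, with ALA minus without, was above 0 for 0.896% of all genes and below 0 for 0.331%. A fall that was weaker or turned to a rise with ALA counts as above 0. Ndrg1 and Pkm were the members of the hypoxia list among the 189, both lower with ALA. For Ndrg1 the effect with ALA was -0.67, lower by 1.82 than without (SE 0.35, adjusted p = 0.0295). Its levels were 4.41, 3.50, 4.61 and 4.39 in ALA tumours and 2.94, 3.75, 3.64 and 3.91 in ALA plus X-ray tumours. Mt1 and Mt2 had effects of -0.026 and -0.027 with ALA, but the difference did not pass for either (adjusted p = 0.0507 and 0.133). The count of 189 rested on single arrays, running from 1 to 1065 as each of the 16 was left out, and was 8 with slide as a block. It was highest without replicate 1 of ALA plus X-ray (1065) or of X-ray (762), 400 without ALA replicate 2 and 134 without control replicate 1. It was at most 39 without any other array.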

How the data were processed

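Per the file headers, the authors scanned 1-colour Agilent arrays of all 16 tumours and extracted the deposited intensity values with Feature Extraction 10.7.3.1 (9.5.3.1 per the submitters' processing notes). The headers name mm9. The authors' deposited intensity table had the same median in every column, as after quantile normalisation, and was an alternative. The deposited flags for outlier, saturated and background-level spots were used as given.

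Processed signals were taken as log2 minus the array's 75th percentile over non-control spots. Outlier spots were dropped, spots of a probe averaged, and 39 probes left out. The filter kept probes flagged as above background on 4 or more of the 16 arrays and the brightest probe of each gene, 15399 genes in all. RefSeq (GRCm38.p6) gave names to 26868 of 41174 probes through accessions, 2900 through symbols and 351 through older symbols; 11055 kept the name in the file. limma 3.58.1 (R 4.3.3) fitted 4 group means to 16 arrays, with Benjamini-Hochberg adjustment at 0.05. The fit was tested on simulated data. The number of arrays limits the precision.

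Genes were named by rule: the 10 rises and 10 falls of smallest p measured on all 8 arrays, up to 4 called members per list and direction or the 2 of smallest p, 16 genes whatever their values, and up to 6 per direction called in both X-ray effects and 3 whose effects differ. Other names were chosen after their values were seen. A few genes picked by this rule were left out of the text. Members and lists were chosen with earlier results of these data known. Slide equals replicate number per the file headers, so slide was fitted as a block. Deviations of same-numbered control and X-ray arrays correlated at -0.212, 0.356, 0.0787 and -0.112.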

Additional observations from a re-analysis of the deposited data

Results flagged for a closer look

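In 14 of 294 groups of 4 arrays, 1 tumour lay far from the other 3 on the log2 signal scale, where chance alone gives about 1 in 20. Cdkn1a was highest in control replicate 2, at 2.40 against 1.85 to 1.94 in the other 3. Vtn was highest in control replicate 2, at -1.31 against -1.90 to -1.87 in the other 3. Gdf15 was highest in control replicate 2, at 3.14 against 2.39 to 2.50 in the other 3. Cdt1 was highest in X-ray replicate 3, at 4.49 against 3.96 to 4.00 in the other 3. Bcl2l1 was lowest in X-ray replicate 3, at 0.27 against 0.93 to 1.04 in the other 3. Ctsa was lowest in X-ray replicate 3, at 3.84 against 4.23 to 4.31 in the other 3. Clec3b, a fibroblast lectin, was lowest in X-ray replicate 3, at -4.51 against -3.45 to -3.26 in the other 3. Pfkp was lowest in control replicate 4, at 1.57 against 2.10 to 2.15 in the other 3. Mx2, an antiviral GTPase, was highest in X-ray replicate 1, at 0.93 against -2.10 to -1.62 in the other 3. Tap2, a peptide transporter, was highest in X-ray replicate 1, at 0.18 against -1.98 to -1.63 in the other 3. Psmb10, an immunoproteasome subunit, was highest in X-ray replicate 1, at 6.31 against 4.19 to 4.41 in the other 3. Tbx21, the T-bet transcription factor, was highest in X-ray replicate 1, at -2.34 against -5.71 to -5.55 in the other 3. Kdr was lowest in X-ray replicate 1, at -1.93 against -0.88 to -0.83 in the other 3. Hba-a1, alpha globin, was highest in control replicate 1, at 5.92 against 4.44 to 4.67 in the other 3.

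For 14 of the genes named, the X-ray effect with ALA differed from that without it in limma's test of the difference, given as with minus without on the log2 scale. Uox, Tlr7, Otulinl, Ptpn9, Pex5 and Epha1 were named for their small p in this same test. The count of 14 is therefore partly set by the naming rule. Tubg2, gamma-tubulin, had 0.92 without and -0.001 with ALA, a difference of -0.92 (adjusted p = 0.0379). Ndrg1 had 1.15 without and -0.67 with ALA, a difference of -1.82 (adjusted p = 0.0295). Vtn had -2.28 without and 1.21 with ALA, a difference of 3.48 (adjusted p = 0.0309). Aspn had -2.01 without and 1.64 with ALA, a difference of 3.65 (adjusted p = 0.0308). Ms4a7, a macrophage membrane protein, had -1.83 without and 4.07 with ALA, a difference of 5.90 (adjusted p = 0.0272). Csf1r, the macrophage growth factor receptor, had -1.77 without and 2.92 with ALA, a difference of 4.69 (adjusted p = 0.0494). Lpl, lipoprotein lipase, had -1.64 without and 1.95 with ALA, a difference of 3.59 (adjusted p = 0.0308). Gp1bb, a platelet adhesion receptor chain, had 1.01 without and -0.82 with ALA, a difference of -1.83 (adjusted p = 0.0388). Uox, urate oxidase, had -2.24 without and 3.53 with ALA, a difference of 5.77 (adjusted p = 0.00679). Tlr7, an RNA sensor of innate immune cells, had -1.06 without and 4.47 with ALA, a difference of 5.53 (adjusted p = 0.0136). Otulinl, an OTULIN-like protein, had -1.39 without and 3.28 with ALA, a difference of 4.67 (adjusted p = 0.0146). Ptpn9, a protein tyrosine phosphatase, had 0.37 without and -0.59 with ALA, a difference of -0.97 (adjusted p = 0.0272). Pex5, the peroxisomal import receptor, had 0.65 without and -0.49 with ALA, a difference of -1.14 (adjusted p = 0.0272). Epha1, an ephrin receptor, had 0.75 without and -0.80 with ALA, a difference of -1.54 (adjusted p = 0.0272). Some of these genes were above the background limit on few arrays: Uox and Otulinl on 2 of the controls and 0 of the X-ray arrays, Tlr7 on 2 and 1, Gp1bb on 1 and 2, and Vtn and Aspn on 4 and 1. The sizes without ALA, and with them the differences, are not well determined for these 6. In ALA tumours Uox stood at -5.57, -5.52, -6.43 and -5.75, Tlr7 at -5.56, -5.32, -6.29 and -5.84, and Otulinl at -5.46, -5.46, -6.18 and -5.76. These levels are as low as X-ray arrays where Uox and Otulinl were not above the background limit. The sizes with ALA are therefore not well determined for Uox, Tlr7 and Otulinl either. Ms4a7, Csf1r and Tlr7 belong to macrophages, whose summed markers were 65.7 to 122.0 in control and 20.9 to 123.0 in X-ray tumours, and the part of macrophage content was not tested. Of 15399 genes, 189 passed this test, and 8 did with slide as a block.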

How the results depend on the processing

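The count of 519 genes was 28 with median scaling, 3 without the filter on dim probes, 821 with skeletal muscle level as a covariate and 2963 with array weights, which down-weight deviating arrays. The 307 higher genes numbered 27, 2 and 1333 with median scaling, no filter and array weights, and 501 with the 75th percentile over spots measured on every array. The 212 lower genes numbered 1, 1 and 1630 under those 3, 407 with the muscle covariate, 371 in a fit of only the 8 arrays and 327 each with all 16 arrays above background or with trend and robust moderation. With slide as a block 489 were called, 279 higher and 210 lower. With 1 array left out the counts ran from 1 to 836 in all, 1 to 439 higher and 0 to 397 lower. The 271 genes shared with the ALA arrays were 161 with median scaling and 272 with the block, and 200 to 308 with 1 array left out. The 189 differing genes were 8 with the replicate block and 1 to 1065 with 1 array left out.

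The log2 differences of these genes, none of them called, turned sign in 10 fits. With 1 array left out Tbx21 ran from -0.22 to 0.94, Gzmb ran from -0.49 to 1.21 (and was -0.069 with array weights), Mzb1 ran from 0.038 to 0.30 (and was -0.074 with normexp background correction), S100a8 ran from -0.24 to 1.01 (and was -0.16 with normexp background correction), Clec3b ran from 0.47 to 0.94 (and was -0.031 with normexp background correction), Krt1 ran from -0.86 to 0.24, Rrm2 ran from -0.28 to 0.032 and Cxcl10 ran from -0.25 to 0.58. Tbx21, Gzmb, Krt1, Rrm2 and Cxcl10 turned without X-ray replicate 1 and S100a8 without X-ray replicate 4. The cause was not tested. The replication, mitotic, ribosome, cholesterol, p53 and hypoxia medians kept their sign under all alternatives. Medians of 16 lists changed sign in at least 1 alternative: antigen presentation, cytokines, senescence-associated secretion, TGF-beta, pigmentation, lysosome, melanoma identity and skeletal muscle, and the T cell, NK, B cell, dendritic, adipocyte, keratinocyte, platelet and Schwann cell markers. The median difference over all genes was -0.06 to 0.04 across scalings. With normexp background correction (offset 50), which shrinks the differences of dim genes, 16 of the 81 called genes named by rule missed the threshold, and with the mean of a gene's probes 9 did. Probes not well above background limit the 20 risen genes with no such control array to lower bounds.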

Other observations

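The genes in this section were chosen after their values were seen, from the 519 called by limma, and their log2 differences of X-ray minus control are given beside those of ALA plus X-ray minus ALA. Both chains of the vitronectin receptor were called. Itgav, the alpha-v integrin, had 0.92 (adjusted p = 0.0167, 0.64 with ALA), and Itgb3, the beta-3 integrin, 1.09 (adjusted p = 0.0208, 1.23 with ALA). Anxa2, a membrane-binding annexin, had 0.79 (adjusted p = 0.0295, 0.26 with ALA). Transcription regulators were also called, among them Sox9, of the neural crest, with 1.32 (adjusted p = 0.0485, 1.42 with ALA), Ahr, the dioxin receptor, with 1.48 (adjusted p = 0.0342, 1.19 with ALA), and Cited1, a cofactor of melanocytes, with 1.70 (adjusted p = 0.0208, 1.03 with ALA). Mxd4, which opposes Myc, had 0.88 (adjusted p = 0.0208, 0.40 with ALA). Further genes known as p53 targets were outside the list, Susd6 with 0.61 (adjusted p = 0.0365, 0.75 with ALA), Aifm2 with 0.69 (adjusted p = 0.0306, 1.03 with ALA) and Gls2 with 1.36 (adjusted p = 0.0394, 1.04 with ALA).

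Chromatin and RNA-binding genes stood among the falls. Hat1, which acetylates new histones, had -0.77 (adjusted p = 0.0331, -0.51 with ALA), and Nap1l1, a histone chaperone, -0.72 (adjusted p = 0.0251, -0.47 with ALA). Dek, a chromatin protein, had -0.62 (adjusted p = 0.0387, -0.74 with ALA). Usp1, which removes ubiquitin from PCNA and Fancd2, had -0.89 (adjusted p = 0.0208, -0.68 with ALA), and Rnf168, a ubiquitin ligase at DNA breaks, -0.59 (adjusted p = 0.0281, -0.20 with ALA). Cgas, the sensor of cytosolic DNA, had -0.93 (adjusted p = 0.0348, -0.35 with ALA). Among RNA-binding proteins, Dhx9 had -0.98 (adjusted p = 0.0209, -0.78 with ALA), Sfpq -0.73 (adjusted p = 0.0349, -0.62 with ALA), Tra2b -0.61 (adjusted p = 0.0209, -0.39 with ALA), Tardbp -0.65 (adjusted p = 0.0351, -0.30 with ALA) and Hnrnpm -0.54 (adjusted p = 0.0244, -0.21 with ALA). Gas5, a host gene of small nucleolar RNAs, had -0.87 (adjusted p = 0.0331, -0.59 with ALA). Of the vessel-related genes, Epas1, which encodes HIF-2 alpha, had -0.84 (adjusted p = 0.0351, 0.13 with ALA) and Aqp1, a water channel, -0.98 (adjusted p = 0.0286, 0.013 with ALA).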
